A study of Mus musculus with 2 samples.

Results

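The genes described here are the mouse carriers of glucose, other sugars and small monocarboxylates, in the solute carrier families SLC2, SLC5 and SLC16. They were taken as every probe set with a single gene symbol that begins with Slc2a, Slc5a or Slc16a and a number. This gave 66 of the 45037 probe sets on the array and 38 gene symbols, of which 37 are carrier genes, 11 in SLC2, 13 in SLC5 and 13 in SLC16. The remaining symbol, Slc2a4rg-ps, is not a carrier, and its probe set was dim at 6 on the high-fat diet array and 12.9 on the normal chow array. Slc2a7 was not analysed here. RNA came from epididymal white adipose tissue, a visceral fat pad, of male C57BL/6 mice without a stated genetic change. One array came from a mouse given a high-fat diet for 7 weeks, and the other from a mouse kept on normal chow; dietary challenge began at 9 weeks of age. The sources used here do not give the composition of the diets, nor the age or time of day at collection.

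SLC2 proteins, known as GLUTs, let glucose and related sugars move down their gradient. In fat cells Slc2a4, encoding GLUT4, is moved to the cell surface in response to insulin, while Slc2a1, encoding GLUT1, serves basal uptake. SLC5 proteins use the sodium gradient to draw sugars, inositol, iodide, vitamins or choline into cells, and several of them are best known from gut, kidney or thyroid. The SLC16 family, known as MCTs, holds proton-coupled carriers of lactate, pyruvate and ketone bodies together with carriers of amino acids and creatine, and some members without a settled substrate. Fat tissue both takes up glucose and releases lactate.

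Each diet had 1 array, so the spread between animals is unknown and no test of the diet was possible. "Higher" and "lower" describe these 2 samples, and each difference is the log2 intensity on high-fat diet minus that on normal chow. A floor for weak signal was set at each array's 40th percentile, an intensity of 27.9 on high-fat diet and 28.6 on normal chow. Probe sets that reached the floor on either array were taken as measured, and those under it on both are called dim here. Where only 1 array reached the floor, the other was set to its floor, so that such a difference is a bound. A gene was represented by its brightest measured probe set. As a yardstick of probe error alone, the differences of probe sets of one gene scattered about their mean with a pooled SD of 0.317 on the log2 scale, and of 0.375, 0.289 and 0.205 at mean intensities under 100, between 100 and 400 and above 400. The tissue label was matched by its markers, with Adipoq, the gene of adiponectin, at 8718.4 on high-fat diet and 8372.1 on normal chow.

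As a set, the differences of the transporter genes were centred near 0, with quartiles farther apart than those of all measured genes. Of the 38 symbols 29 were measured, and 24 reached the floor on each array. Among these 24 genes 11 were higher and 13 lower. The median difference of the 29 genes was -0.01, with bounds taken at their value, against -0.02 over all 14066 measured genes. Their quartiles were -0.50 and 0.18, against -0.24 and 0.20 over all measured genes. The median was -0.28 in SLC2, 0.03 in SLC5 and -0.01 in SLC16. On high-fat diet 6 transporter genes were 1.5-fold or more lower, namely Slc2a3, Slc2a13, Slc5a1, Slc5a6, Slc5a11 and Slc16a7, which is 20.7% of those measured against 6.33% of all measured genes. The 3 genes that were 1.5-fold or more higher were Slc5a5, Slc5a7 and Slc16a12, or 10.3% against 5.74%. At 2-fold or more, 1 gene (Slc2a3) was lower, where 1.33% of all measured genes were, and 1 gene (Slc16a12) was higher, where 1.16% were. When the scale was centred on reference genes, all measured genes split into 4.24% that were 1.5-fold or more higher and 8.84% lower, and the transporters into 3 and 7.

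The counts were also read within ranges of signal. Of transporter genes with a mean intensity under 100, 5 of 18 differed 1.5-fold or more in either direction, or 27.8%, against 17.4% of all measured genes in that range. Between 100 and 400 the count was 4 of 9, or 44.4%, against 7.26%. Above 400, where only Slc2a4 and Slc5a3 lay, it was 0 of 2, against 7.62%. Because the tissue was measured in bulk, fewer cells of a type and less RNA per cell cannot be told apart in any of these values.

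**Figure D1:**
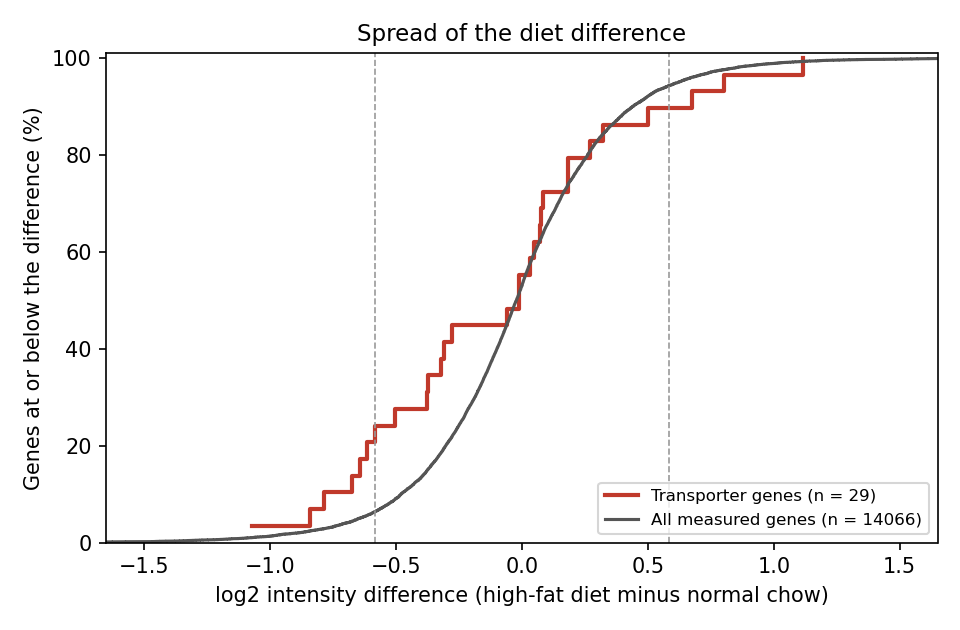
Cumulative share of genes, in percent, against the log2 intensity difference (high-fat diet minus normal chow) for the 29 measured transporter genes (red) and all 14066 measured genes (grey), with bounds at their value and dashed lines at 1.5-fold. The curves cross near 0, and the red curve lies above the grey one on the left, where 20.7% of transporter genes against 6.33% of all genes were 1.5-fold or more lower.

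The facilitative glucose carriers of SLC2 class I held the largest lower value. Slc2a3 encodes GLUT3, a high-affinity glucose carrier best known from neurons and white blood cells. Its brightest probe set had an intensity of 234.1 on high-fat diet and 492.6 on normal chow, a difference of -1.07 or 2.10-fold lower. In units of the probe SD at this intensity the difference is -3.72. A further probe set of Slc2a3 stood at 87.1 on high-fat diet and 162.6 on normal chow, and the dimmest measured one at 31.1 on high-fat diet and 43.5 on normal chow, differences of -0.90 and -0.48. All measured probe sets of Slc2a3 were thus lower, though the 2 brightest are of kinds that can also detect related transcripts, and the remaining one was dim on both arrays, at 27.4 on high-fat diet and 27.1 on normal chow. With plain probe sets alone, or the probe set of smallest difference, Slc2a3 stands at -0.48 and within 1.5-fold. Among markers of cells known for GLUT3, 5 of 15 macrophage genes were higher and 10 lower, with a median of -0.10 and summed intensities of 10424.3 on high-fat diet and 10610.4 on normal chow. Of 6 measured T and B cell genes 3 were higher and 3 lower, and Cd3d and Cd4 were dim on both arrays. The part of these cells in the value of Slc2a3 was not tested.

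Slc2a4, the insulin-regulated carrier, was lower in both of its probe sets by less than 2-fold. They had intensities of 634 on high-fat diet and 898.3 on normal chow, and of 446.9 on high-fat diet and 722.9 on normal chow, differences of -0.50 and -0.69. The first of these, which stands for the gene, is 1.42-fold and falls short of the 1.5-fold mark, and the second is 1.62-fold. Among markers of mature fat cells 10 of 13 measured genes were higher, Pnpla2 among them with 4720.5 on high-fat diet and 4720.2 on normal chow, and 3 lower, with a median of 0.06. Of the higher ones, Aqp7 at 1.03, with 0.59 in its other probe set, and Lep at 0.63 were past 1.5-fold. The lower ones were Pparg at -0.49, Cebpa at -0.26 and Retn at -0.07. The part of fat cell content in the value of Slc2a4 was not tested. For Slc2a1, the carrier of basal uptake, the direction depended on the probe set. Its brightest stood at 92 on high-fat diet and 81.1 on normal chow, a difference of 0.18, and the others differed by -0.50 and -0.14. Slc2a2, the GLUT2 of liver and pancreatic beta cells, was dim on both arrays, at 7.4 on high-fat diet and 8.8 on normal chow.

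**Figure D2:**
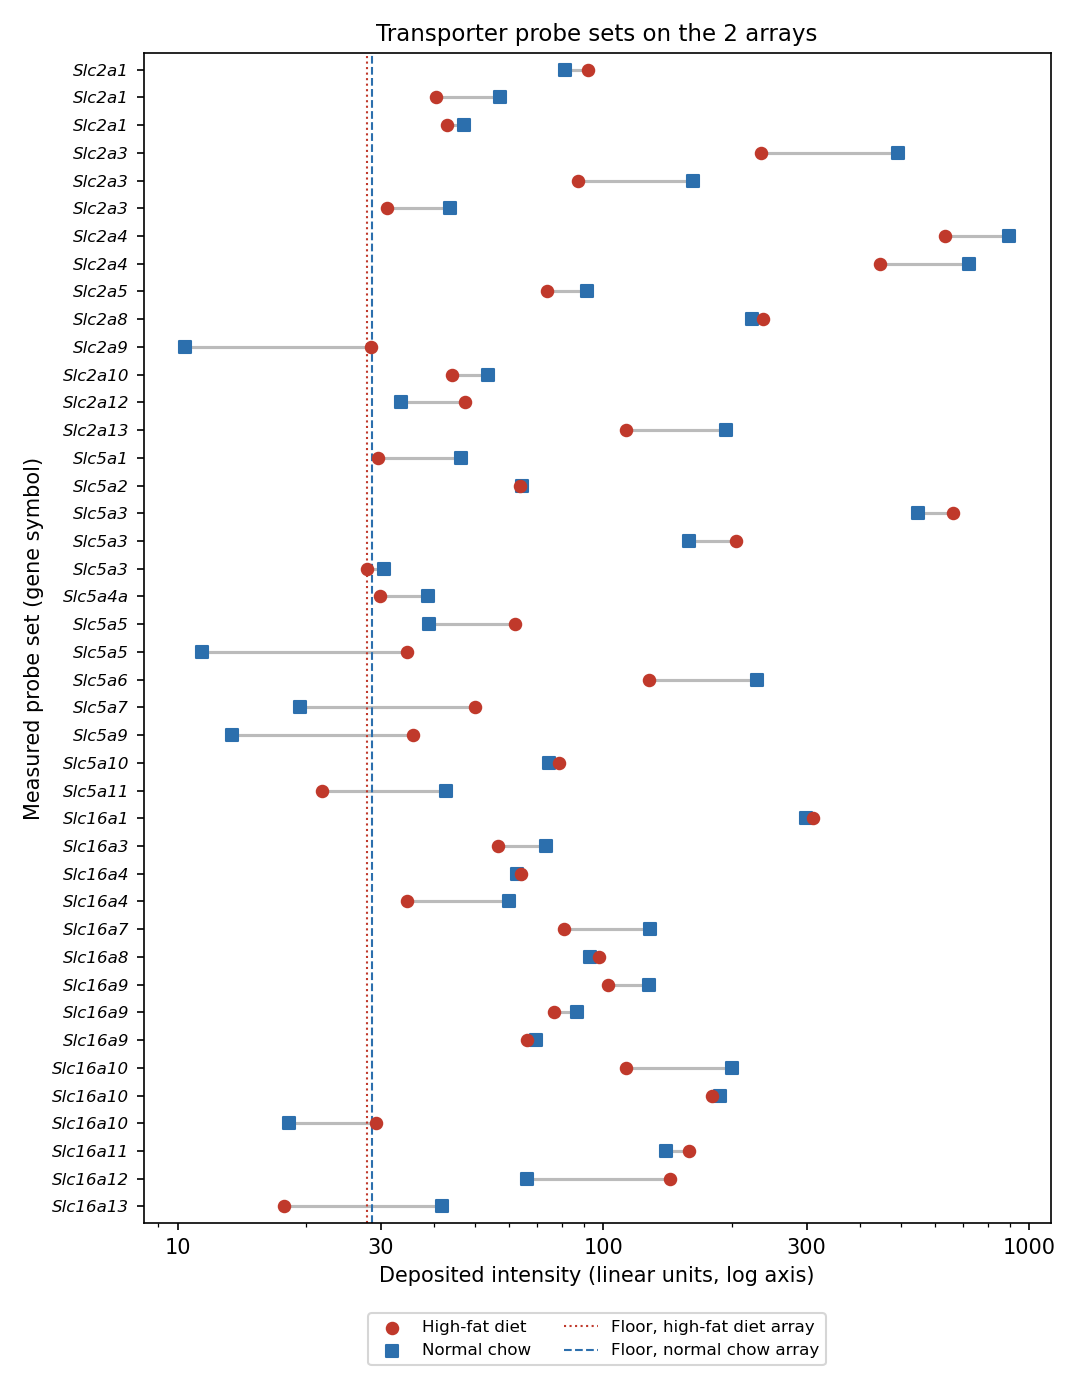
Deposited intensity (linear units, log axis) of each measured transporter probe set on the high-fat diet array (red circles) and the normal chow array (blue squares), with each array's floor as a vertical line. Levels of different probe sets cannot be compared with each other; within a row, the 3 probe sets of Slc2a3 and both of Slc2a4 are lower on high-fat diet, and Slc16a12 is higher, at 143.4 against 66.2.

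In the other SLC2 classes Slc2a13 stood out. It encodes HMIT, a proton-coupled carrier of myo-inositol, and its only probe set had 112.8 on high-fat diet and 194.2 on normal chow. This is a difference of -0.78, or 1.72-fold lower, and -2.72 in units of the probe SD. Slc2a5, Slc2a8, Slc2a10 and Slc2a12 were within 1.5-fold. Slc2a5, the fructose carrier GLUT5, stood at 73.6 on high-fat diet and 91.3 on normal chow, a difference of -0.31. Slc2a10, encoding GLUT10, had 44.2 on high-fat diet and 53.6 on normal chow, a difference of -0.28. Slc2a12, the GLUT12 gene, went the other way with 47.2 on high-fat diet and 33.4 on normal chow, a difference of 0.50. These values of Slc2a10 and Slc2a12 come from probe sets of a kind that can also detect related transcripts. The other probe set of each was dim, at 8.8 on high-fat diet and 12.8 on normal chow for Slc2a10. For Slc2a12 it had 13.1 on high-fat diet and 4.7 on normal chow. Slc2a8, which encodes the intracellular carrier GLUT8, was close to equal at 237.5 on high-fat diet and 223.9 on normal chow. Slc2a9, the urate carrier, reached the floor on high-fat diet alone, at 28.4 against 10.4 on normal chow, too close to the floor to give it a direction or a size. With the floor at the 20th percentile its difference was 1.45. With 16 added to each intensity in place of a floor, which shrinks differences of weak signals, it was 0.75. Slc2a6 was dim, at 13.6 on high-fat diet and 18.9 on normal chow.

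Among the sodium-coupled SLC5 carriers, the vitamin carrier was lower and the iodide and choline carriers higher. Slc5a6 encodes the multivitamin transporter, which takes up biotin, pantothenate and lipoate, the first being the cofactor of acetyl-CoA carboxylase. It had 128 on high-fat diet and 229.2 on normal chow in its only probe set, a difference of -0.84 or 1.79-fold lower, and -2.91 in units of the probe SD. Slc5a5, the iodide carrier of the thyroid, stood at 62.1 on high-fat diet and 38.9 on normal chow, 1.60-fold higher. Its other probe set had 34.5 on high-fat diet and was under the floor on normal chow at 11.4, at least 1.21-fold higher. Slc5a7, the choline carrier of cholinergic neurons, was above the floor on high-fat diet alone, at 49.9 against 19.4 on normal chow, at least 1.74-fold higher. With the floor at the 60th percentile the difference of Slc5a5 was 0.045, so its count among the higher genes rests on dim signal.

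The sugar carriers of SLC5 gave weak signals, all with intensities under 100 on both arrays. Slc5a1, the sodium-glucose carrier SGLT1 of gut and kidney, had 29.6 on high-fat diet, just above the floor, and 46.2 on normal chow, 1.56-fold lower. With 16 added to each intensity in place of a floor, which shrinks differences of weak signals, its difference was -0.45 and within 1.5-fold. Its second probe set was dim on both arrays, at 1.7 on high-fat diet and 14.9 on normal chow. Slc5a2, the SGLT2 of kidney, stood at 63.8 on high-fat diet and 64.3 on normal chow. That probe set of Slc5a2 is of a kind that can also detect related transcripts. Its other probe set was dim on both arrays, at 13.3 on high-fat diet and 15.7 on normal chow. Slc5a10, encoding SGLT5, had 78.6 on high-fat diet and 74.7 on normal chow. Slc5a4a, a mouse gene of the SGLT3 type, had 29.8 on high-fat diet and 38.7 on normal chow, a difference of -0.38. Slc5a9, encoding SGLT4, was above the floor on high-fat diet alone at 35.7, against 13.4 on normal chow, at least 1.25-fold higher. Its difference was 0.81 with 16 added to each intensity and 1.41 with the floor at the 20th percentile. Its other 3 probe sets were dim on both arrays.

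The inositol carriers of SLC5 did not share a direction. Slc5a3, which encodes SMIT1, a carrier known for its response to osmotic stress, had 660.4 on high-fat diet and 547.9 on normal chow, a difference of 0.27. A further probe set of Slc5a3 had 205 on high-fat diet and 158.6 on normal chow, a difference of 0.37, and the dimmest, at 27.9 on high-fat diet and 30.5 on normal chow, differed by -0.13. Slc5a11, the SMIT2 gene, was above the floor on normal chow alone, at 21.8 on high-fat diet against 42.7 on normal chow, at least 1.53-fold lower. Slc5a8, at 27.4 on high-fat diet and 19.1 on normal chow, and Slc5a12 are sodium-coupled monocarboxylate carriers, and both were dim, as was the sugar carrier Slc5a4b.

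The proton-coupled lactate carriers of SLC16 differed little, with the exception of Slc16a7. Slc16a1, encoding MCT1, which carries lactate in either direction, had 310.1 on high-fat diet and 299.8 on normal chow, a difference of 0.05. Slc16a3, encoding MCT4, the lactate exporter of glycolytic cells, stood at 56.5 on high-fat diet and 73.2 on normal chow, 1.30-fold lower and as large as the probe SD at this intensity. Slc16a7 encodes MCT2, a high-affinity carrier of pyruvate and lactate. It had 80.8 on high-fat diet and 128.9 on normal chow in its only probe set, a difference of -0.67 or 1.60-fold lower, and -2.33 in units of the probe SD. Slc16a8, the MCT3 of retinal pigment epithelium, had 97.7 on high-fat diet and 92.8 on normal chow, and its second probe set was dim on both arrays.

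Slc16a12 held the largest higher value of the transporters. It encodes MCT12, a carrier of creatine, and its only probe set had 143.4 on high-fat diet and 66.2 on normal chow. The difference of 1.12, or 2.17-fold higher, is 2.98 times the probe SD. Over 9 alternative ways of processing it ran from 0.955 to 1.16. The choices of probe set and the floors at the 20th and 60th percentiles could not move it from 1.115. The gene has only 1 probe set, and both arrays lay above those floors. This range does not measure error between arrays or animals. Slc16a10, encoding TAT1, a carrier of aromatic amino acids, gave no single answer. The probe set that stands for Slc16a10 had 180 on high-fat diet and 187.7 on normal chow, a difference of -0.06, and another of nearly equal brightness on normal chow had 112.8 on high-fat diet and 199.9 on normal chow, a difference of -0.83. The dimmest measured one, at 29.2 on high-fat diet and 18.3 on normal chow, barely reached the floor on high-fat diet.

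Of the SLC16 members with a less settled substrate, Slc16a9 was lower in all 3 probe sets, by -0.32, -0.18 and -0.07, with 102.3 on high-fat diet and 127.7 on normal chow in the brightest. Slc16a11, a gene linked to type 2 diabetes in humans, had 158.9 on high-fat diet and 140.1 on normal chow, a difference of 0.18. Slc16a13 was above the floor on normal chow alone, at 17.8 on high-fat diet against 41.8 on normal chow, a bound of -0.58 that lies just inside the 1.5-fold mark. Slc16a4 had 64.2 on high-fat diet and 62.8 on normal chow in one probe set and 34.6 on high-fat diet and 60.1 on normal chow in the other, differences of 0.03 and -0.80, so no single direction can be given for it. Slc16a5, Slc16a6 and Slc16a14 were dim on both arrays. Over the 9 symbols that were dim throughout, the 12 probe sets ran from 2.2 to 27.4 on high-fat diet and from 1.2 to 26 on normal chow.

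**Figure D3:**
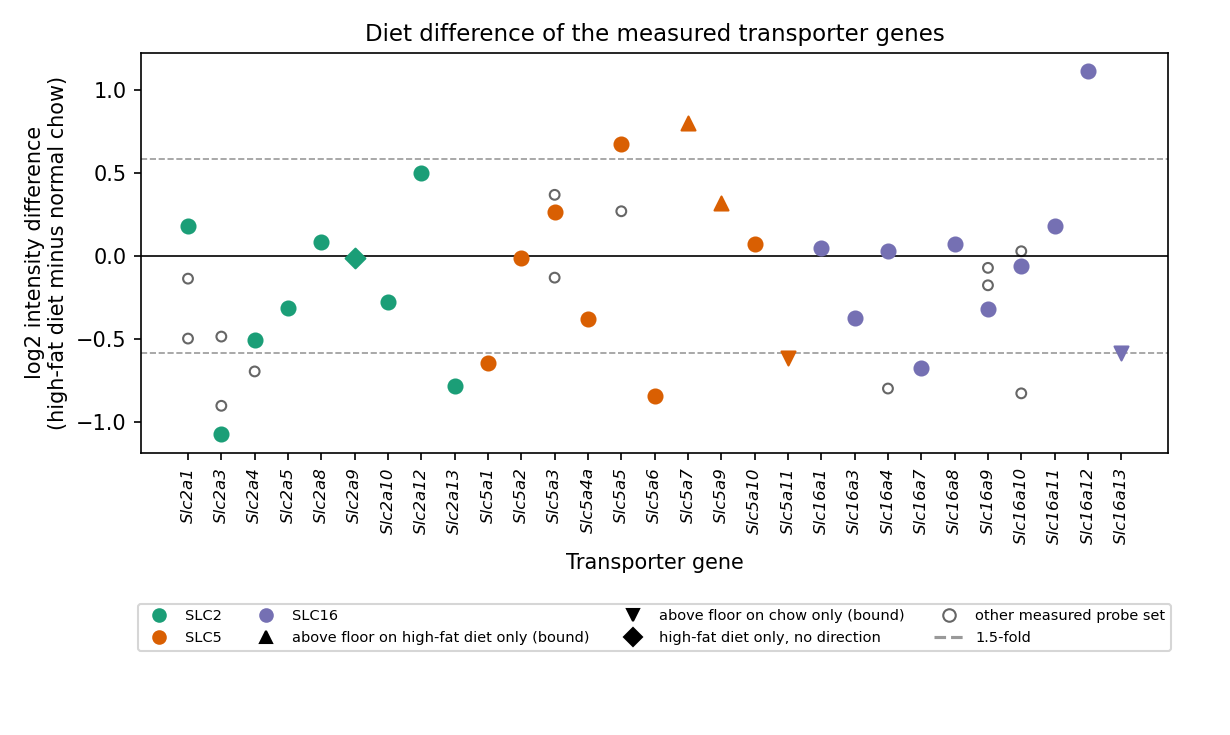
Difference in log2 intensity (high-fat diet minus normal chow) of the 29 measured transporter genes, coloured by family, with other measured probe sets of the same gene as open circles, triangles for bounds, a diamond for Slc2a9, which has no direction, and dashed lines at 1.5-fold. Slc2a3 at -1.07 and Slc16a12 at 1.12 are the extremes, and the open circles of Slc2a1, Slc5a3, Slc16a4 and Slc16a10 lie across the zero line from the filled symbol or on both sides of it.

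Counted by probe set, the transporters leaned to the lower side. Of 42 measured probe sets 10 were 1.5-fold or more lower, or 23.8%, against 6.73% of the 24240 measured probe sets with 1 symbol. On the higher side 3 of 42 reached that size, or 7.14%, against 6.24%. Probe sets of one gene share its transcripts, so these counts are not independent of each other. The lower probe sets that the gene count leaves out are second probe sets of Slc2a3, Slc2a4, Slc16a4 and Slc16a10. Of 8 transporter genes with several measured probe sets 4 had all of them in one direction, or 50.0%, against 46.3% of the 6077 such genes on the array.

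Promoter sequence is shown for the 3 genes with an entry in the RefSeq promoter table that differed 1.5-fold or more, by over 2 probe SDs and with both arrays above the floor, so that a reader can see what lies before their starts. Each line gives the 250 bases before the annotated start, 5′ to 3′ on the gene's strand, from build GRCm38.p6. The windows are chr19:34747329-34747578 on the minus strand for Slc16a12, chr5:31048563-31048812 on the minus strand for Slc5a6 (the more upstream of its 2 starts) and chr15:91573262-91573511 on the minus strand for Slc2a13. Capitals mark every match on either strand to 4 motifs, none of which contains another. The E-box was searched as CACGTG and the GC box as GGGCGG. The CCAAT box was searched by the letters of its name. The TATA box was searched as TATAAA.
Slc16a12: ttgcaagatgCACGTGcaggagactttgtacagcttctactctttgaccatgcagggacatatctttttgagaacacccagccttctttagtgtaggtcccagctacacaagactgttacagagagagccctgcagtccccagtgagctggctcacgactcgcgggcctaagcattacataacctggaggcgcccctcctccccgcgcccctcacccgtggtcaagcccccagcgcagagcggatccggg
Slc5a6: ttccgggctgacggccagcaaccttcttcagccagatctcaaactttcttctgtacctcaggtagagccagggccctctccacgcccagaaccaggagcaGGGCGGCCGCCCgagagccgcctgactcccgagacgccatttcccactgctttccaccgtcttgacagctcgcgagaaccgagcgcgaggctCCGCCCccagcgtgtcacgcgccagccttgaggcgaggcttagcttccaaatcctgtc
Slc2a13: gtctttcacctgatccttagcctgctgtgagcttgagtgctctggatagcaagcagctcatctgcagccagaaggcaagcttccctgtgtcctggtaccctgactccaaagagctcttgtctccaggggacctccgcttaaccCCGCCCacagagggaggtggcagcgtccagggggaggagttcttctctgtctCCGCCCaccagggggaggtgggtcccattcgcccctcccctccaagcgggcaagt

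The window of Slc16a12 held 1 E-box and no other match. The windows shown for Slc5a6 and Slc2a13 held GC boxes, with 3 and 2 matches, and no other match. The window of the other start of Slc5a6 held 4 GC boxes and 1 CCAAT box. Over all 32851 windows of this length 6.02% held an E-box, 32.7% a GC box, 33.8% a CCAAT box and 12.4% a TATA box. Of the 25 windows found for 23 of the measured transporter genes 3 held an E-box, those of Slc5a1, Slc16a1 and Slc16a12, or 12.0%. A GC box was found in 12 of them, or 48.0%, a CCAAT box in 9, or 36.0%, and a TATA box in 3, or 12.0%. These are matches of letters within the window and are not evidence of binding. The 3 genes with an E-box did not share a direction, with Slc16a12 higher by 1.12, Slc16a1 at 0.05 and Slc5a1 at -0.64.

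In a list of hexokinases and other genes of glucose phosphorylation and uptake control, 4 of 9 measured members were higher and 5 lower, with a median of -0.05 against -0.02 over all measured genes. Of the 9, 3 were 1.5-fold or more lower and 1 higher, where 6.33% and 5.74% of all measured genes were. The 3 lower genes were Hk2, the insulin-responsive hexokinase, Khk, which phosphorylates fructose, and Arrdc4, an arrestin-like inhibitor of glucose uptake. Hk2 had 471 on high-fat diet and 734.7 on normal chow, a difference of -0.64. Khk had 90.7 on high-fat diet and 152.3 on normal chow, a difference of -0.75, and Arrdc4 had 35 on high-fat diet and 55.7 on normal chow, a difference of -0.67. Hkdc1, a hexokinase-like gene, was above the floor on high-fat diet alone, at 56.4 against 11 on normal chow, at least 1.97-fold higher. Txnip, the relative of Arrdc4 that also restrains uptake, had 3729.2 on high-fat diet and 3622.6 on normal chow, a difference of 0.04, and 2285.2 on high-fat diet and 1868.9 on normal chow in its other probe set, a difference of 0.29.

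The machinery that carries GLUT4 vesicles to the cell surface had a median difference of 0.02, against -0.02 over all measured genes. Of 15 measured genes 8 were higher and 7 lower, where 52.5% of all measured genes were lower. By size, 2 were 1.5-fold or more lower and 0 higher, where 6.33% and 5.74% of all measured genes were. Vamp2, a vesicle fusion protein, had 111.8 on high-fat diet and 238.1 on normal chow, a difference of -1.09, but its other probe set differed by -0.03. Stx4a, the syntaxin of the target membrane, had 134.1 on high-fat diet and 237 on normal chow, 1.77-fold lower in its only probe set. Tbc1d4, the insulin-controlled brake on these vesicles, had 262.4 on high-fat diet and 335.3 on normal chow, a difference of -0.35, with -0.95 in its other probe set. Sort1 was lower in all 3 probe sets, by -0.08 in the brightest and by -0.27 and -0.805 in the others. The last, at 235.4 on high-fat diet and 411.2 on normal chow, is past 1.5-fold. Trarg1 had the largest higher difference of the list, 0.48, with 612.4 on high-fat diet and 439.8 on normal chow. Tbc1d1 was higher by 0.39, with a bound of 0.55 in its other probe set. Rab8a showed the smallest difference of the list, at 0.02, with -0.42 in its other probe set.

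By their brightest probe sets, 0 of 9 measured genes of lactate, pyruvate and ketone body handling differed 1.5-fold or more, where 12.1% of all measured genes did. Of these 6 were higher and 3 lower, with a median of 0.09. Bsg, encoding basigin, the partner that brings MCT1 and MCT4 to the membrane, had 1469 on high-fat diet and 1377.6 on normal chow, and Emb, the partner of MCT2, had 82.8 on high-fat diet and 99.8 on normal chow. The other probe set of Emb had 37.8 on high-fat diet and 58.4 on normal chow, a difference of -0.63 that is past 1.5-fold. Ldha, the lactate dehydrogenase subunit of glycolytic tissue, had 3318.3 on high-fat diet and 3104 on normal chow. Oxct1, the enzyme that lets tissues use ketone bodies, had the largest difference, with 1836.4 on high-fat diet and 1262.7 on normal chow, or 0.54, and all of its 4 probe sets were higher. One of them was past 1.5-fold, at 493.6 on high-fat diet and 288.8 on normal chow, a difference of 0.77. Ldhd, which acts on D-lactate, had the smallest difference, at -0.05.

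Of 13 transcription factors linked to these carriers 4 were higher and 9 lower, where 52.5% of all measured genes were lower. Their median was -0.22 against -0.02 over all measured genes, and -0.019 with plain probe sets alone. That last setting leaves out Mlxipl, Myc, Srebf1 and Pparg, which have no plain measured probe set and were all lower, so it covers fewer genes. None was 1.5-fold or more higher, where 5.74% of all measured genes were, and 3 were lower by that size, where 6.33% were. The largest differences were those of Klf15 and Mlxipl, the genes of a factor that acts on the Slc2a4 promoter and of the carbohydrate-responsive ChREBP. Klf15 had 191.6 on high-fat diet and 496.7 on normal chow, a difference of -1.37, and Mlxipl had 201.8 on high-fat diet and 495.5 on normal chow, a difference of -1.30, each in 1 probe set. Myc stood at 30.4 on high-fat diet and 48.9 on normal chow, 1.61-fold lower and just above the floor. Mef2a, another factor of the Slc2a4 promoter, had the smallest difference at 0.02, with probe sets on both sides of 0, and Hif1a, the hypoxia factor that acts on Slc2a1 and Slc16a3, differed by 0.20.

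**Figure D4:**
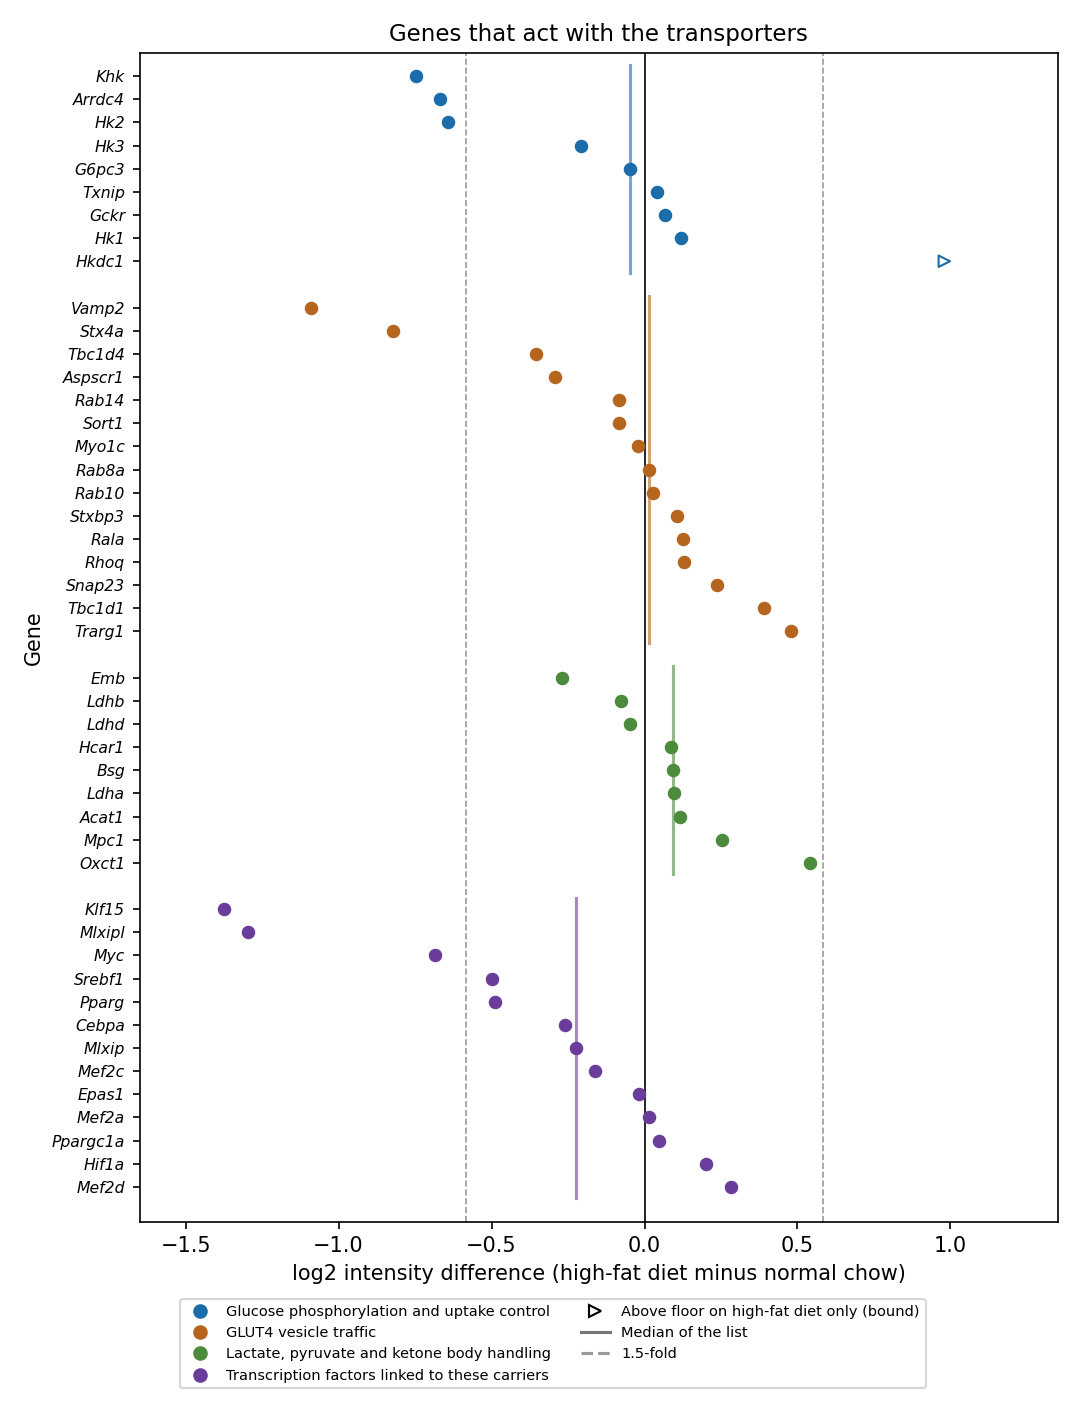
Difference in log2 intensity (high-fat diet minus normal chow) of each measured gene in 4 lists of genes that act with the transporters, with the median of each list as a coloured line, an open triangle for a bound and dashed lines at 1.5-fold. Lower genes past 1.5-fold appear in the phosphorylation, vesicle and transcription factor lists, led by Klf15 at -1.37, and the points of the lactate list, each a gene's brightest probe set, lie within 1.5-fold.

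Markers of other cells and tissues differed between the 2 samples, and their part in the transporter values was not tested. Of 7 measured liver genes all were lower on high-fat diet, with a median of -1.48. Their summed intensities were 256.2 on high-fat diet and 769.7 on normal chow. For 4 of them, Apoa2 included, only normal chow reached the floor. Their differences are bounds, and their lower direction was fixed by that filter. The 3 above the floor on both arrays were Ttr, at -1.93, Alb and Apoh. Apoa2 was at 13.1 on high-fat diet and 214.2 on normal chow. Alb, the albumin gene, differed by only -0.22. Apoh differed by -1.48, but its other probe set by 0.155. Fgb was dim on both arrays. Slc2a2, the glucose carrier of liver, was dim on both arrays. Mesothelial genes mark the outer lining of the tissue; of 10 measured, 2 were higher, led by Msln at 0.45, and 8 lower, led by Bnc1 at -1.31. Their median was -0.68 and their sums were 1360.2 on high-fat diet and 1895.1 on normal chow. Endothelial genes had 5 of 10 higher, a median of -0.01 and sums of 2717.7 on high-fat diet and 2845.1 on normal chow. Smooth muscle and pericyte genes had 2 of 7 higher, with a median of -0.18, and fibroblast and progenitor genes 6 of 7, with a median of 0.32. Epididymis genes were measured in 4 of 9 cases, with 1 higher and 3 lower, a median of -0.49 and sums of 161.4 on high-fat diet and 191.9 on normal chow. Skeletal muscle genes were measured in 2 of 8 cases, testis germ cell genes in 3 of 8 and red blood cell genes in 3 of 7, with medians of -0.002, 0.18 and -0.01. All 3 testis values and 2 of the 4 epididymis values are bounds, so these medians mix bounds. In the red blood cell list 1 value is a bound without a direction.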

How the data were processed

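Expression was measured on 1 Affymetrix array per diet, from biotin-labelled cRNA of 10 µg total RNA, per the labels' protocols. The authors deposited 1 linear intensity per probe set and array, without detection calls; the sources used here do not give their summary algorithm, scaling, tools or genome build. Intensities were used as deposited, since the arrays' median log2 values differed by only -0.03 and the mean without the outer 2% on either side was 99.6 on both. A scaling of this kind would remove any difference in total RNA. Gene symbols came from a 2016 version of the platform annotation: 34945 probe sets had 1 symbol, 932 several and 9160 none, and 34741 of the first were found in RefSeq's gene table through their gene ID, with 0 symbols changed. The floor, the gene value and the bounds are as described with the results. No test and no p-value was computed. Every measured transporter gene is named with its values, and from each pathway list the genes 1.5-fold or more different and that of smallest difference. Some further genes (Tbc1d4, Tbc1d1, Trarg1, Sort1, Bsg, Emb, Ldha, Oxct1, Hif1a, Srebf1, Pparg) were added after their values were seen. The members and lists were chosen with earlier results of these data known. The calculation was tested on simulated data. Analyses used Python 3.11.15, numpy 2.4.6, pandas 2.3.3, statsmodels 0.14.6 and matplotlib 3.10.9. The alternatives were 3 floors, 3 choices of probe set and 3 scalings. Precision is limited by having 1 array per diet.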

Additional observations from a re-analysis of the deposited data

How the results depend on the processing

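Of 249 transporter gene values recomputed under the 9 alternatives, 234 moved by less than the pooled probe set SD of 0.317 log2. All 78 values of genes that were 1.5-fold or more different kept their direction, 69 of them still at that size. Many of these values could not move. Of those genes only Slc2a3 and Slc5a5 have several measured probe sets, so the choice of probe set leaves the rest unchanged. A changed floor leaves a probe set above it on both arrays unchanged. Slc5a1, Slc5a7 and Slc5a11 were not measured with the floor at the 60th percentile and have no value there among the 78. The median difference of the transporter genes ran from -0.188 (mean of measured probe sets) to 0.02 (quantile normalization), and no list median moved by more than that SD.

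Small counts moved with the floor and the probe set. With the floor at the 20th percentile 5 of 36 measured transporter genes were 1.5-fold or more higher, 4 of them 2-fold or more. Under this floor 3 were 2-fold or more lower. Over all genes 9.79% were then 1.5-fold or more higher and 10.5% lower. The share of all genes at 2-fold was not computed under the alternatives. The added genes were near or under the main floor, such as Slc2a9 at 1.449. With the floor at the 60th percentile 1 of 20 was 1.5-fold or more higher, against 3.6% of all genes, and 4 lower, against 3.93%. Without a floor, on log2(intensity + 16), 0 were 2-fold or more higher. With the mean of a gene's probe sets, its probe set of smallest difference or plain probe sets, 0 were 2-fold or more lower in each case, because Slc2a3 then differed by less; its smallest size was -0.484. On log2(intensity + 16) Slc16a7 (-0.582), Slc5a1 (-0.448) and Slc5a5 (0.509) came within 1.5-fold. Slc2a9 (0.75), Slc5a9 (0.814) and Slc16a13 (-0.774) passed that size, and 4 genes were 1.5-fold or more higher. Also within 1.5-fold were Slc5a11 (-0.582) under quantile normalization and Slc5a5 with the mean of its probe sets (0.473) or that of smallest difference (0.271). The count 1.5-fold or more lower ran from 4 to 9. Scaling to quantiles, reference genes or by lowess left every count within 1.5 times. Signal over background limits the 18 transporter genes with a mean intensity under 100 most, where the floor is 27.9 on high-fat diet and 28.6 on normal chow. No paired analysis was possible because each diet has 1 array.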

Other observations

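Pairs of these carriers lie side by side among protein-coding genes in the RefSeq table. Slc16a11 and Slc16a13 are neighbours on chromosome 11 and differed by 0.18 and by a bound of -0.58. Slc5a4a and Slc5a4b are neighbours on chromosome 10; the first differed by -0.38, and the second was under the floor on both arrays, at 20.1 on high-fat diet and 15.6 on normal chow.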
